A study of Mus musculus with 8 samples.

Results

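The regions described here are places in the mouse genome where the authors' anti-IRF5 peak calls appeared in both libraries of macrophages given CpG and in neither library of control macrophages. Peaks of the 4 anti-IRF5 libraries were merged wherever they overlapped by at least 1 bp, and a merged region was kept when it held a peak in CpG 1 and CpG 2 and none in control 1 or control 2. This rule gave 638 CpG-only regions among 55621 merged regions, or 1.15%. They made up 8.47% of the 7534 merged regions with a peak in both CpG libraries. The opposite pattern, a peak in both control libraries and in neither CpG library, was found in 4841 regions (8.7%), and 5599 regions (10.1%) had a peak in all 4 libraries. The regions were chosen by the peak calls of all 4 libraries, so their number and their peak strengths in these lists are given as a description, with no test.

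All libraries came from wild-type murine macrophages grown from bone marrow, treated with PBS (the control) or with CpG, with 2 anti-IRF5 libraries per condition. The dose and duration of CpG, the age of the mice and whether the libraries of a condition stem from separate animals or cultures are not given in the labels, so a spread between libraries may be technical. In CUT&Tag, the method used, the antibody (ab21689 of abcam) draws a fusion of protein A and the transposase Tn5 to its target in permeabilised cells, where it cuts and tags the DNA. Judged by the names of the lists, both control libraries were called against 1 control IgG library. The names of the 2 CpG lists give their CpG IgG library differently, so whether they shared 1 is uncertain. Each condition was called against its own IgG, so background and condition cannot be told apart. Control 1 and control 2 had 29226 and 37315 peaks, whereas CpG 1 had 13553 and CpG 2 had 25851. CpG 1 had the shortest list, and depth is unknown. Of the 34 macrophage identity genes listed for this work, 31 were the nearest gene of a peak in at least 1 library, against 3 of 5 B cell markers, 3 of 6 T and NK cell markers, 4 of 5 neutrophil markers, 3 of 5 stromal and endothelial markers and 0 of 5 erythroid and megakaryocyte markers. A peak near a gene does not measure its expression, so these counts are no check of cell purity.

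IRF5 is an interferon regulatory factor, a family of transcription factors that bind DNA elements built from repeats of GAAA, the interferon-stimulated response elements. CpG DNA is sensed in endosomes by TLR9, which signals through MyD88, and IRF5 is activated in this pathway together with NF-kB and the MAP kinases that drive AP-1. In macrophages IRF5 is known for its part in the induction of inflammatory cytokines. Peaks near a gene start lie in its promoter, while intron and intergenic peaks may lie in enhancers that can act on distant genes, so a nearest gene is a positional label and not a known target.

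Sequence around the gene start is shown for 5 promoters under CpG-only summits. The first, of Trim21, belongs to the only interferon-stimulated gene of the list used here that was nearest to a CpG-only region. Rps7 held the other match to the same element, Trem1 a match to an ETS element, and Mapk14 and Faim none of the motifs searched. The Rps7 match began 214 bases before the gene start, away from its peaks. Its CpG 1 summit lay 25 bp after the start, and the midpoint of its CpG 2 peak 148 bp after it. The Trem1 match began 109 bases before the gene start, while the Trem1 summits lay 31 and 25 bp before the start in the deposited annotation. The sequences run 5′ to 3′ on the gene's strand, from 250 bases before the gene start to 50 bases from it onward, and were taken from the RefSeq promoter table of GRCm38.p6. In that build they lie at chr7:102565433-102565732 (minus strand), chr12:28635904-28636203 (minus strand), chr17:48232489-48232788 (plus strand), chr17:28691092-28691391 (plus strand) and chr9:98986123-98986422 (plus strand). Capitals mark matches on either strand to an interferon-stimulated response element core in Trim21 and Rps7 and to an ETS element in Trem1.
Trim21: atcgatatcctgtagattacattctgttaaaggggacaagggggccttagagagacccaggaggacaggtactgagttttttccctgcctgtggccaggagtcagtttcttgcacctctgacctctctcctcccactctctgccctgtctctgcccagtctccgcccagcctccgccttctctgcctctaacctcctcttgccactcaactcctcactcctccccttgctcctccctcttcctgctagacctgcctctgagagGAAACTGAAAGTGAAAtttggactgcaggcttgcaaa
Rps7: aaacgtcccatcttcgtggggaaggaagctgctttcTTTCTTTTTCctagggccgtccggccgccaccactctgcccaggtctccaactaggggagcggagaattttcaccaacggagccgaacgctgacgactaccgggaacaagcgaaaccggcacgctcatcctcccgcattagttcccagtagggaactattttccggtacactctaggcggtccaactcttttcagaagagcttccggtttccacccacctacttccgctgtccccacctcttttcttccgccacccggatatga
Trem1: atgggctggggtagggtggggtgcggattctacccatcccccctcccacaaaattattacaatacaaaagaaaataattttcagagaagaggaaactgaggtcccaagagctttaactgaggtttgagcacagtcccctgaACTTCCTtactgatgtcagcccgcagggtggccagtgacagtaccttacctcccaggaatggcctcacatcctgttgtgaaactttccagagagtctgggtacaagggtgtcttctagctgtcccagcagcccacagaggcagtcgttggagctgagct
Mapk14: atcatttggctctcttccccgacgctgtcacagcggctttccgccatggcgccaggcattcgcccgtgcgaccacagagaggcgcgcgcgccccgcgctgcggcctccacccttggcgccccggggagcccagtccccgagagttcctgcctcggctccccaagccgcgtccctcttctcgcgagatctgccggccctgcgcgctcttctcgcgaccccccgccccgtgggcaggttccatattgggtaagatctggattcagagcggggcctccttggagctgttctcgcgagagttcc
Faim: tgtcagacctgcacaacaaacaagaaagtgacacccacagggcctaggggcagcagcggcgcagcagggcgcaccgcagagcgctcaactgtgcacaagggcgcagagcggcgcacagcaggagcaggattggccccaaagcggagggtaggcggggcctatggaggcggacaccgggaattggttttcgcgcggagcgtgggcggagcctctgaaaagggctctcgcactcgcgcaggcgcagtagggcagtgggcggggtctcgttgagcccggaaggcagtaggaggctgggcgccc

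In Trim21, which encodes a cytosolic antibody receptor and ubiquitin ligase, the capitals are 2 overlapping matches, GAAACTGAAA and GAAAGTGAAA, which share 4 bases and begin 14 bases into the gene. The CpG summits lay upstream of them, 178 bp before the gene start in CpG 1 and 74 bp before it in CpG 2 as the deposited annotation places that start. The region, chr7:102214709-102214934, lay wholly upstream of that start, 102214693 on the minus strand. It therefore did not cover the matches, if both annotations place the start alike. In Mapk14, which encodes the stress kinase p38 alpha, and Faim, which protects cells from death through Fas, the printed stretches instead held 33 and 25 CG dinucleotides, against 3 in Trim21. Their summits lay 78 and 68 bp before the start of Mapk14 and 67 and 41 bp before that of Faim. The build of the peak positions is not named in the sources used here, and gene positions in the lists differ from those of the RefSeq table. Promoters were therefore matched by gene symbol, and the gene's length on the chromosome differed between the 2 annotations by 4 bp for Trim21, 6 bp for Rps7, 57 bp for Trem1 (whose start in the promoter table is 26 bp off the start of its RefSeq gene), 15 bp for Mapk14 and 3 bp for Faim.

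Across the promoters, the response element was about as frequent as in the table as a whole, with counts of 2 to 8 promoters for every motif. A CpG-only summit lay between 250 bp before and 50 bp after a gene start in 72 regions, near 73 genes, of which 59 had a promoter in the table and 37 also had a gene length within 100 bp of RefSeq's. The response element core, searched as GAAA, any 2 bases and GAAA, was in 2 of the 59 (3.39%) and in 944 of all 27025 promoters (3.49%). The NF-kB motif, GGG, any 3 bases and TTCC, was in 2 (3.39%, against 5.54% of all), and the AP-1 motif TGANTCA in 4 (6.78%, against 7.92%). The ETS motif AGGAAGT was in 8 (13.6%, against 9.52%) and the TATA box TATAAA in 4 (6.78%, against 14.2%). Promoters of control-only regions and of regions with a peak in all 4 libraries differed from the table in the same directions for both. They held the ETS motif in 10.6% and 11.9% and the TATA box in 6.004% and 9.74%, in that order. Their shares were 2.07% and 3.501% for the response element, 5.797% and 7.44% for NF-kB, and 3.52% and 6.13% for AP-1. Both strands were searched for each motif, and a match is a description of letters and not of binding. The median promoter under a CpG-only summit held 16 CG dinucleotides, against 21 in the 483 promoters of control-only regions, 21 in the 914 promoters of regions with a peak in all 4 libraries and 7 over the whole table. Thus these promoters had a median CG count between those of the whole table and of the other called sets.

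The rank of CpG-only regions within the CpG lists depended on the measure. Their median peak was 202 bp wide in CpG 1 and 265.5 bp in CpG 2, against 201 and 320 bp over all merged regions with a peak in that library. The median CpG-only region, as merged, was 338 bp wide (range 145 to 2211 bp), 5 were wider than 1 kb, and 634 of 638 held a single peak from each CpG library. Fold enrichment is the authors' ratio of pileup, the stacked fragments at the summit, to local background. In CpG 1 it ran from 2.1001 to 175.868 with a median of 5.52, and in CpG 2 from 2.82 to 17.1 with a median of 6.20. The median pileup was 15 fragments in CpG 1 (8 to 446) and 13 in CpG 2 (7 to 399). Since values of different lists are not comparable, each peak was ranked within its own list. The median CpG-only peak stood at percentile 61.6 of CpG 1 and 51.0 of CpG 2, where regions with a peak in all 4 libraries had medians of 57.2 and 81.3. By fold enrichment the CpG-only peaks thus ranked below the shared ones in CpG 2, and both sets lay above the middle in CpG 1. Ranked by −log10 q the CpG-only medians were 51.1 and 40.5, and by pileup they were 44.4 and 27.8.

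Since a region needed overlapping peaks of both CpG libraries to be kept, closeness of their placing follows from the rule. The summits were a median of 80 bp apart and within 100 bp in 377 regions (59.1%), the annotation class was the same in 602 (94.4%) and the nearest gene in 633 (99.2%). The Spearman correlation of the percentiles was 0.259 over the 638 regions, against 0.415 over the 5599 with a peak in all 4 libraries. Regions share their libraries and are not independent, so these are descriptions. A total of 231 regions (36.2%) were above the median of both lists, and 65 were above the 90th percentile of CpG 1, 11 above that of CpG 2 and 3 above both.

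**Figure D1:**
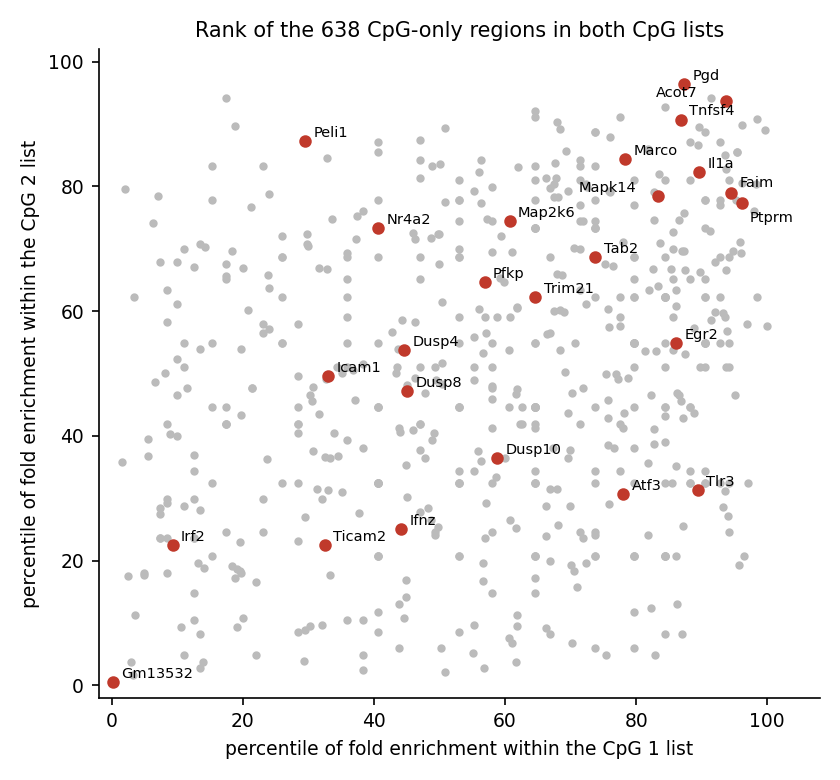
Each point is a CpG-only region, with its percentile of fold enrichment within the CpG 1 list (x axis) and within the CpG 2 list (y axis). Red points with names are regions nearest to a gene of the lists or named in the text. Points fill most of the square, and Acot7, near the upper right corner, stood at percentile 93.8 in CpG 1 and 93.7 in CpG 2.

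Among the 12 regions with the highest rank in both lists, 8 were in introns and 4 between genes. The highest lay in an intron of Acot7, an acyl-CoA thioesterase, at chr4:152270045-152270423 of the deposited coordinates, with a fold enrichment of 8.55 in CpG 1 and 13.8 in CpG 2. Another lay in an intron of Vti1a, with Tcf7l2, a transcription factor of the Wnt pathway, as the nearest start 185372 bp away, and its folds were 7.82 and 14.3. In an intron shared by Gm29539 and Wnt6 the folds were 11.1 and 12.02. These 3 regions were the ones above the 90th percentile of both lists.

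Further down that order were regions in introns of Ripor2 (9.36 and 11.6), Pde4b (14.2 and 11.2), Camta1 (7.78 and 11.1), Pgd (7.33 and 17.1) and Clec2i (8.21 and 10.6). Pde4b encodes a phosphodiesterase that degrades cAMP, and Pgd an enzyme of the pentose phosphate pathway. Pgd had the highest fold of any CpG-only region in CpG 2. The 4 intergenic regions were nearest to Gm11980 (7.67 and 11.4), Thg1l (7.35 and 10.6), Tnfsf4 (7.20 and 11.96) and Gm48873 (7.65 and 10.5). The region of Tnfsf4, which encodes the costimulatory OX40 ligand, was 1060 bp wide and lay 18746 bp upstream of the gene by the CpG 2 peak. Of these 12, the region near Gm11980 lay 395 bp from a control 2 peak, whereas Thg1l had no control peak within 109333 bp.

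At the other end, the 5 lowest regions included 3 of the promoter class. Gm13532 was lowest, with folds of 2.1001 and 2.82 despite pileups of 446 and 399 fragments, the highest of all CpG-only regions in both CpG libraries. Ralgapa2 followed the same pattern on a smaller scale, with folds of 2.94 and 3.17 on pileups of 43 and 32. In both regions many fragments stood over a high local background. Abce1, Gm37645 and Apba2 were low in 1 library only, with folds of 5.18 and 3.32, 2.75 and 8.82, and 2.62 and 5.39. One region that the naming rule did not pick was singled out after its values were seen: near 4930445E18Rik, CpG 1 had a fold of 175.868 on a pileup of 431, the highest fold of its list, while CpG 2 had 6.56 on a pileup of 12.

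By annotation, CpG-only regions were more often intergenic and less often in promoters than the other called sets, though no test was made of this. A peak can carry several classes, so shares can add up to over 100%. The promoter class was carried by 14.6% ± 0.222 (SD, n = 2 CpG libraries) of CpG-only regions, against 20.5% ± 0.161 (SD, n = 2) of control-only regions and 22.3% ± 0.482 (SD, n = 4) of regions with a peak in all 4. The intergenic share was 36.2% by either CpG library's peak, against 24.3% ± 0.0438 (SD, n = 2) and 30.4% ± 0.0326 (SD, n = 4). The libraries annotate the same regions, so these SDs cover the placing of a peak and not the choice of regions. With lists of equal length 18.6% of the CpG-only regions were promoter and 32.3% intergenic, and leaving out CpG 2 gave 8.02% and 45.1%. Introns held 46.5% of CpG-only regions, between the 45.2% of regions shared by all and the 52.1% of control-only regions. Exons held 7.84%, 5' UTRs 3.45% and 3' UTRs 1.33%.

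**Figure D2:**
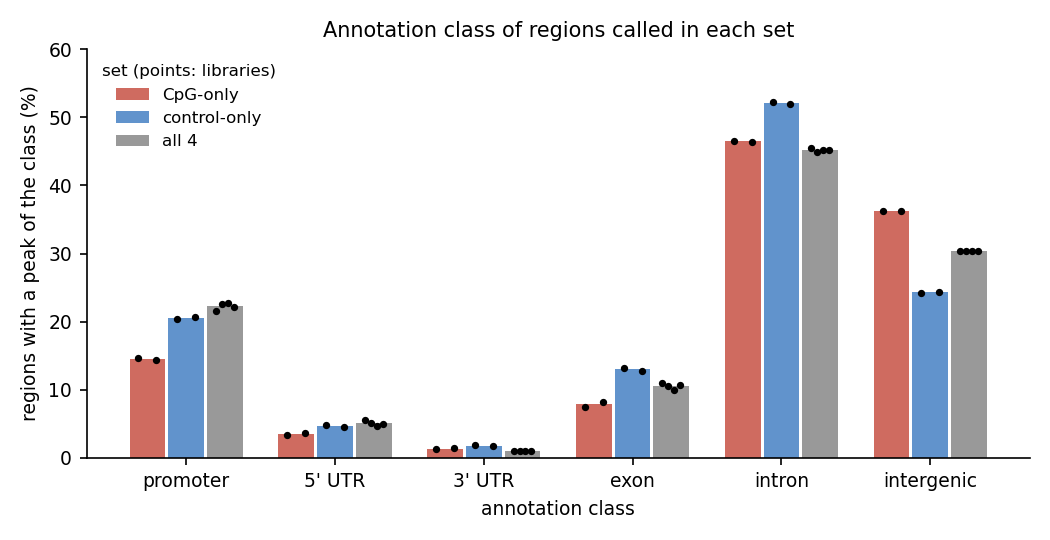
Bars give the mean percentage of regions whose peak carries each annotation class (x axis) in the CpG-only, control-only and all-4 sets, and black points give each library whose peaks were used. The CpG-only bar is lowest for the promoter class (14.6%) and highest for the intergenic class (36.2%).

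The CpG 1 list differed in the same direction as a whole. Its peaks were 36.8% intergenic and 15.8% promoter, against 28.6% and 20.2% in CpG 2, and the part of this list in the shares above was not tested. Regions with a peak in CpG 1 alone were 46.7% intergenic (n = 4196), and those in CpG 2 alone 30.2% (n = 5281). Read the other way, regions with a peak in both CpG libraries were grouped by the class of their CpG 2 peak. Of these, 92 of 1527 promoter regions were CpG-only (6.02%), as were 296 of 3439 intron regions (8.61%) and 231 of 2394 intergenic regions (9.65%), beside 8.47% over all. The corresponding values were 6.83% for exons, 6.69% for 5' UTRs and 11% for 3' UTRs, the last from only 9 of 82 regions.

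CpG-only regions lay farther from gene starts than control-only regions and those with a peak in all 4 libraries, but about as far as all regions of the CpG 1 list. The median distance from the peak's midpoint to the start of the nearest gene was 11332.5 bp in CpG 1 and 11373 bp in CpG 2, against a mean of the library medians of 5198.5 bp for control-only regions and 6637.5 bp for regions with a peak in all 4. Within 2 kb of a start lay 22.3% of CpG-only regions, 35.5% of control-only regions and 33.1% of the shared ones. Beyond 100 kb lay 26 CpG-only regions (4.08%), against 0.992% and 1.79%. All merged regions with a CpG 1 peak had a median of 10454 bp, with 23.5% within 2 kb and 4.15% beyond 100 kb, while those with a CpG 2 peak had a median of 6720 bp. The CpG-only medians were thus above those of all merged regions of either CpG library. For regions in CpG 1 alone the median was 17049.5 bp and for those in CpG 2 alone 8622 bp, with the CpG-only medians between these values. Regions in control 1 alone and control 2 alone had medians of 7745.5 and 7742 bp.

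**Figure D3:**
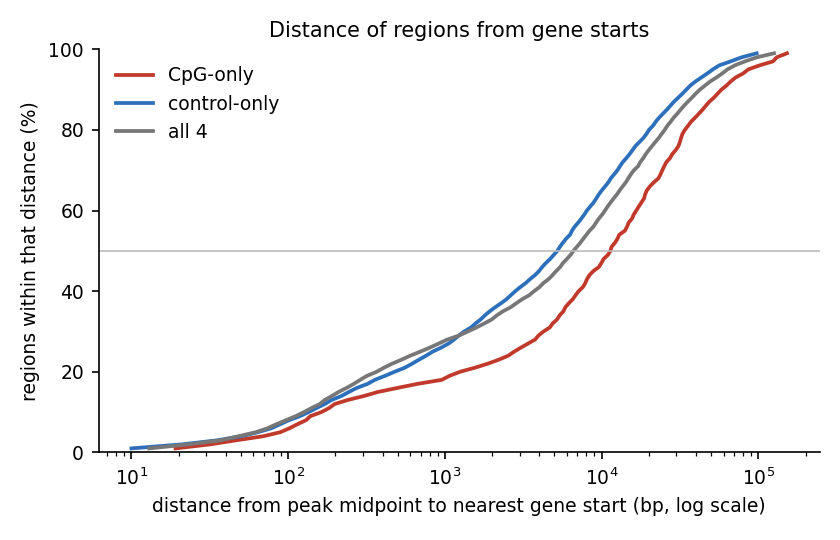
Lines give the percentage of regions (y axis) whose peak midpoint lies within a given distance of the nearest gene start (x axis, bp on a log scale), from the CpG 2 peaks for the CpG-only and all-4 sets and the control 2 peaks for the control-only set. The CpG-only line runs below the others over most of the range, and 47.0% of its regions lie within 10 kb.

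By chromosome, 61 of the regions lay on chromosome 1, 54 on chromosome 2, 42 on chromosome 9 and 41 on chromosome 11. Their share of a chromosome's merged regions ran from 0.705% on chromosome 19 to 1.72% on chromosome 12, chromosome Y aside. Chromosome X had 7, and chromosome Y had 0 of its 39 merged regions. Of the 638, 21 pairs of neighbours lay within 50 kb of each other and 7 within 2 kb. One such pair sat 666 bp apart in Acot7, where the weaker region had folds of 3.75 and 5.45.

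Some CpG-only regions lay near a control peak that did not touch them. A peak of either control library was within 500 bp of 73 regions (11.4%) and within 1 kb of 109 (17.1%), of which 32 had one in both control libraries, 21 in control 1 alone and 56 in control 2 alone. The median gap was 9222.5 bp, 307 regions had no control peak within 10 kb and 50 (7.84%) had none within 100 kb. The most remote, 25838 bp upstream of the adhesion gene Cadm2 by the CpG 2 peak, was 1.97 Mb from control 1 and 2.24 Mb from control 2. The share within 1 kb was 7.52% with lists of equal length, 5.99% with peaks up to 500 bp apart merged and 30.5% without CpG 1, each over the regions that then met the rule. Control-only regions lay closer to CpG peaks, with a median gap of 4126 bp and 22.6% within 1 kb.

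**Figure D4:**
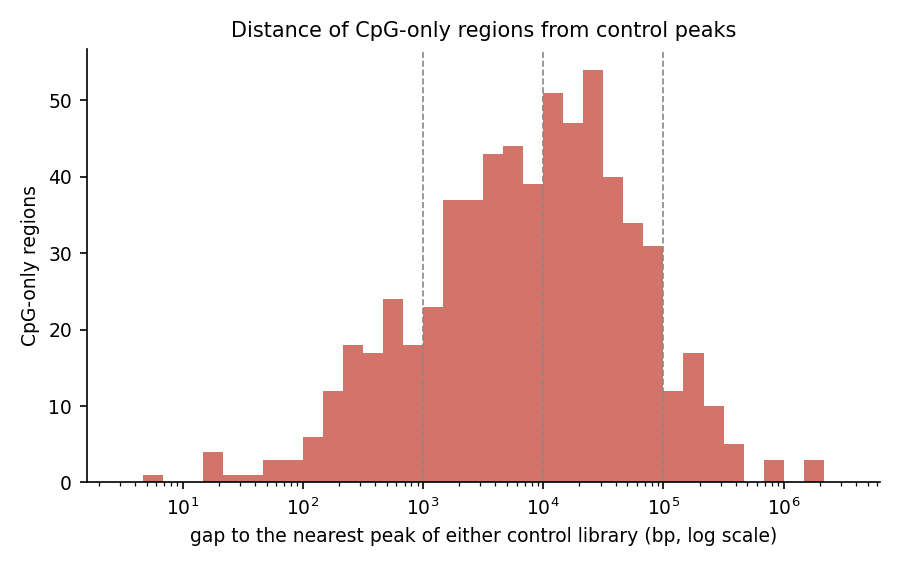
Bars count CpG-only regions (y axis) by the gap to the nearest peak of either control library (x axis, bp on a log scale), and dashed lines mark 1, 10 and 100 kb. The counts peak around and above 10 kb, with 109 of the 638 regions left of the 1 kb line.

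At the edge of the rule, 3 regions left out for a control peak were overlapped by just 2 bp near Gm26061, 4 bp near Rfx5 and 6 bp near Tada1. The closest ones kept had gaps of 5 bp near Gm28940, 15 bp near Gm17806 and 18 bp near Gm47665. In all, 22 regions were left out with a largest overlap under 50 bp, and 7 were kept with a control peak within 50 bp. In the authors' lists of whole conditions, whose making is not stated, 565 CpG-only regions overlapped a peak of the CpG list and none of the control list. A further 10 overlapped peaks of both lists, among them the regions near Irf2 and Card9, and 63 overlapped none.

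The number of regions depended on list length and on each library. With every list cut to its 13553 strongest peaks, the length of CpG 1's, 957 regions met the rule, beside 1613 control-only regions, and 254 of the 638 were among the 957. With CpG 1 left out 5946 regions met the rule, with CpG 2 left out 4926, with control 2 left out 1755 and with control 1 left out 865. Fewer lists had to be matched in these counts, so they are larger by construction. Of the present set, the other regions thus changed their pattern when the lists were cut to equal length.

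The 638 regions had 626 different nearest genes, of which 612 had a name in the files. Of the 467 found by symbol in RefSeq, 60.8% were protein coding, 20.6% long noncoding RNAs and 14.1% pseudogenes, whereas 77.0% were protein coding for control-only regions and 73.5% for regions with a peak in all 4. Those last shares cover the 3144 of 3804 and 3546 of 4420 named genes found in RefSeq, and genes not found have no type here. Of the 626, 278 (44.4%) were also nearest to a peak in both control libraries, 133 (21.2%) in 1 of them and 215 (34.3%) in neither. No gene was nearest to 3 or more CpG-only regions and 17 were nearest to 2, among them Acot7, Tcf7l2, Shisa5, Ntng2 and Plekhg1.

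The gene lists for this tissue and stimulus had few members here. Of 20404 named genes, 2.95% were nearest to a CpG-only region and 18.4% to a control-only region. Of the 322 list genes among them, 20 (6.21%) were nearest to a CpG-only region and 113 (35.1%) to a control-only region. Both shares were above those over all named genes. The lists were chosen with earlier results of these data known, so this comparison is a description and no support for a link. Without control 2 there were 39 such list genes, without CpG 1 there were 105 and without CpG 2 there were 52. By list, the highest counts were 5 of 28 genes of the MAP kinase cascades, 4 of 32 of TLR and MyD88 signalling and 3 of 27 immediate early and stress response genes. In the same order, 9, 10 and 12 genes of these lists were nearest to a control-only region. Interferon-stimulated genes had 1 of 35, cytokines and chemokines 1 of 39, macrophage identity 1 of 31, and lysosome and phagocytosis 0 of 27, where 17 were nearest to a control-only region. The B cell, T and NK cell, neutrophil and stromal markers had 0 of 3, 0 of 3, 0 of 4 and 0 of 3.

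**Figure D5:**
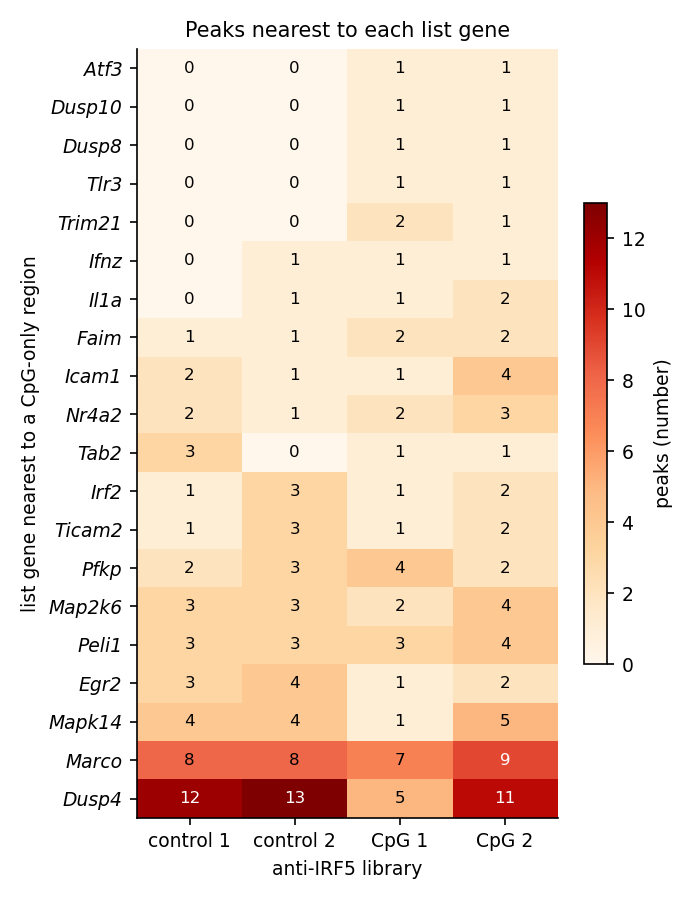
Each cell gives the number of peaks (also the colour) in an anti-IRF5 library (columns) for which a list gene (rows) was the nearest gene, for the 20 list genes nearest to a CpG-only region. The 5 genes at the top have 0 peaks in both control libraries, and Dusp4 at the bottom has 12 and 13.

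Of the sensors and adaptors of the Toll-like receptor pathway, Tlr3, the receptor for double-stranded RNA, had its region 4056 bp upstream of the gene by the CpG 2 peak, at chr8:45867987-45868345. The fold was 7.62 in CpG 1 and 5.27 in CpG 2. It was the sole peak assigned to Tlr3 in each CpG library, and no control peak lay within 81241 bp. Ticam2, an adaptor of TLR4, had folds of 4.503 and 4.83 over an intron near its start, with a control 2 peak 181 bp away. Tab2, which links TRAF6 to the kinase TAK1, had folds of 6.05 and 7.42 in an intron, 649 bp from a control 1 peak. Peli1, a ubiquitin ligase of the same pathway, had its region 57098 bp upstream, at 4.35 and 10.6.

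Of the MAP kinase genes, Mapk14 had folds of 6.80 and 8.54 on pileups of 33 and 29 at chr17:28909980-28910488, in the promoter that it shares with Slc26a8. The nearest control peak was 2809 bp away, and the control libraries each had 4 other peaks nearest to Mapk14. Map2k6, a kinase that activates p38, had an intron region at 5.47 and 7.98, with a control 2 peak 224 bp away. The remaining 3 were dual-specificity phosphatases, which switch MAP kinases off. Dusp8 (4.90 and 5.94) and Dusp10 (5.35 and 5.41) had no peak in either control library, while Dusp4 (4.87 and 6.33) had 12 and 13 elsewhere. Their regions lay 2204, 33171 and 66669 bp upstream by the CpG 2 peaks.

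Among the transcription factors, Atf3, a stress-induced repressor of inflammatory genes, had folds of 6.38 and 5.23 at chr1:190948313-190948534, in an intron 1805 bp past its start. No other peak in the 4 libraries was assigned to Atf3, and the nearest control peak was 6310 bp away. Egr2, a zinc finger factor of the immediate early class, had its region 16669 bp upstream, with folds of 7.03 and 6.36. Nr4a2, an orphan nuclear receptor, had an intron region at 4.75 and 7.95, with control peaks 248 and 833 bp away. Irf2, a family member that competes with activating IRFs, was among the weakest of the list genes, at 3.55 and 4.83. Its control peaks were 427 and 160 bp away, and it stood at percentile 9.28 of CpG 1.

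Of the secreted factors, Il1a, which encodes the inflammatory cytokine interleukin-1 alpha, had folds of 7.67 and 9.30 on pileups of 22 and 20. Its region lay in the authors' promoter class, 1851 bp upstream of the gene at chr2:129153611-129153877, and the nearest control peaks were 4461 and 4033 bp away. It was the highest-ranked promoter region by the lower of its percentiles, 89.6 and 82.3. Ifnz, of the type I interferon family, had an exon region at 4.84 and 4.88, but with a control 2 peak 142 bp away. Ifnz belongs to a group of close copies, so the assignment of reads there is uncertain.

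Of the effectors and markers, Trim21 had folds of 5.62 and 6.89 on pileups of 12 and 12 at chr7:102214709-102214934, with control peaks 139113 and 12155 bp away. Faim had folds of 8.67 and 8.66 at chr9:98868115-98868566, which stood at percentile 94.5 of CpG 1 and 79.0 of CpG 2, and its nearest control peak was 14940 bp away. Marco, a scavenger receptor of macrophages, had the widest region of all, 2211 bp, at folds of 6.39 and 9.76, but also 8 peaks in each control library. Icam1, an adhesion molecule induced by NF-kB, had an intron region at 4.53 and 6.11, and Pfkp, a phosphofructokinase of glycolysis, one at 5.29 and 7.06. Ptprm, a receptor tyrosine phosphatase, was not on a list and had a promoter region at 9.34 and 8.43. The nearest control peak was 3467 bp from this region, and Ptprm was nearest to 4 peaks in control 1 and 6 in control 2.

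Of the 20 list genes, 5 had no peak in either control library (Atf3, Dusp8, Dusp10, Tlr3 and Trim21), 3 had peaks in 1 and 12 in both. Over all 626 nearest genes, 34.3% had none in either control library, 21.2% had peaks in 1 and 44.4% in both. In 6 of the 20 a control peak lay within 1 kb of the CpG-only region, beside 17.1% of all 638 regions. Of the other promoters with a CpG-only summit, 3 are given here that were chosen after their values were seen, and they stand for no group. Trem1, a receptor that amplifies inflammatory signals in myeloid cells, had folds of 5.84 and 5.83, with a control 2 peak 1752 bp away. P2ry14, a receptor for UDP-glucose, had 8.64 and 6.20, with no control peak within 32655 bp. Mgl2, a macrophage lectin, had 6.48 and 6.36, with a control 2 peak 530 bp away.

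The remaining regions named by class were promoters, exons and untranslated regions of genes outside the lists. In the promoter class Gm44202 had folds of 9.42 and 9.001, and 20980 bp separated it from control peaks. In the exon and 5' UTR classes Wdr20 had 6.82 and 8.53, Hpf1, a cofactor of the PARP enzymes, 8.21 and 8.42, Morn2 6.91 and 6.89, and C030034I22Rik 6.88 and 7.63. The 3' UTR class was led by regions nearest to Dgkeos (6.05 and 7.42), Carf (6.91 and 6.89) and Gm42521 (7.003 and 6.65). These UTRs belong to other genes, Med28 for the region near Gm42521 and genes known here by identifier only for the others. By the CpG 2 peaks the regions lay 29019, 27348 and 4594 bp upstream of Dgkeos, Carf and Gm42521. Alas1, of the first step of haem synthesis, was nearest to the second widest region, 1061 bp across and 12662 bp upstream, at 6.17 and 6.55. Of these regions Alas1 ranked lowest, at percentile 57.5 of CpG 2, and Gm44202 highest, at 96.2 of CpG 1.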

How the data were processed

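Anti-IRF5 CUT&Tag peak lists of 2 control and 2 CpG libraries were analysed, and the 4 IgG libraries of the series were not analysed here. The submitters' processing notes name MACS2 2.1.0, BWA 0.7.12, fastp 0.20.0 and ChIPseeker, the last without a version; the build of the genome is not named in the sources used here. The pileup is the deposited signal, the fragments stacked at a summit. Fold enrichment is the deposited ratio of pileup to local background. Significance is the authors' −log10 of p and of q, at least 5.00 for p. Names and starts of nearest genes and annotation classes are other columns of the deposited lists.

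Peaks on the 21 assembled nuclear chromosomes were merged at an overlap of at least 1 bp in Python 3.11.15 with pandas 2.3.3, checked against bedtools 2.31.1 on simulated data, and lines continuing an overlong annotation cell were skipped. Percentiles are of fold enrichment within a list. No test was made, since the calls chose the regions and 2 libraries per condition hold no read counts. Depth is unknown. Exact 95% binomial intervals of shares, and the matching order-statistic intervals of medians, served only to judge alternatives. Named were the 12 highest regions by the lower percentile, the 3 highest per class, the 3 widest, the 5 lowest, all with a list gene nearest, and Il1a, Mapk14, Faim and Ptprm. Members, 17 gene lists and 5 motifs were chosen with earlier results of these data known. Of 20404 named genes 16311 matched RefSeq symbols.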

Additional observations from a re-analysis of the deposited data

How the results depend on the processing

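The count of 638 CpG-only regions was 618 with peaks up to 500 bp apart merged, 567 with the CpG peaks overlapping by at least 50% of the shorter, 529 without regions that had a control peak within 1 kb and 467 with a −log10 q of at least 5 in every list. It was 347 with that minimum for the CpG peaks alone and 2637 from the lists of whole conditions, where list genes numbered 11 and 64 in place of 20. Leaving out one library gave 865 to 5946 regions and 28 to 105 list genes. With the minimum in every list there were 13 list genes, and the median distance was 8719 bp (9319 bp with it for CpG peaks alone, against 11373 bp by the CpG 2 peak). Lists of equal length gave 18.6% promoter and 32.3% intergenic regions, and 7.52% within 1 kb of a control peak. That last share was 5.99% with merging up to 500 bp, in which closer peaks join by construction. Leaving out one library gave 8.02% to 15.6% promoter, 45.1% to 52.6% intron and 30.8% to 45.1% intergenic regions, distances of 8915.5 to 16012 bp and 12.2% to 30.5% within 1 kb. Ranked by −log10 q the median percentiles were 51.1 in CpG 1 and 40.5 in CpG 2, and by pileup 44.4 and 27.8. Leaving out a library or setting a minimum changes by construction how many lists or peaks must match, and the cause of the other shifts was not tested. Of all 89 alternative values, 59 stayed within the interval or within 1.5 times the count. Under each alternative setting with a value, control-only regions were not recounted except at equal list length. Removing regions within 1 kb of a control peak leaves no share within 1 kb to give. No paired analysis was possible because no test was made and the labels' replicate numbers name libraries only. Depth is unknown and limits every count of missing peaks: a peak absent from a list is not shown to be absent from the cells.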
